A study of Mus musculus with 8 samples.

Results

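Amino acid transporters are the membrane proteins that carry amino acids into, out of and within cells. The genes described are those with the symbol Slc3a1 or Slc3a2, or with a numbered symbol of the Slc1a, Slc7a, Slc36a, Slc38a or Slc43a families, which made 42 of the 55291 gene symbols measured. C57BL/6J mice, an inbred strain, ate a diet with 0.3% salt (normal salt) or 3% salt (high salt) for 3 days, and RNA was sequenced from the collecting duct of the outer medulla, a kidney tubule built of principal and intercalated cells. There were 4 libraries per diet. A library held 100 to 120 ducts dissected by hand from the enzyme-digested kidney of 1 mouse. The labels name no genotype beyond the strain, and no age or sex.

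Amino acid transporters differ in what they exchange. Heteromeric carriers pair a glycoprotein heavy chain (Slc3a2 or Slc3a1) with a light chain of the Slc7a family that does the transport. The Slc1a family takes up glutamate or small neutral amino acids, and Slc38a members carry glutamine and other neutral amino acids with sodium. Some Slc36a members move amino acids with protons, and Slc43a2 lets neutral amino acids with large side chains leave the cell. In the kidney the proximal tubule reclaims filtered amino acids, whereas cells of the medulla also take up amino acids and related solutes to withstand the concentrated fluid around them.

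Amino acid response elements are short promoter sequences bound by ATF4 and C/EBP factors when cells run short of amino acids. Their core, TGATGCAA, was looked for on both strands in the RefSeq promoters (GRCm38.p6, 250 bases before to 50 after each annotated start). Promoters were given for 31 of the 42 members, and 3 of these (9.68%) held the core, against 1.03% of 27025 genes. The looser form TGATGNAAN, which contains the core, was held by the same 3 members and by 4.50% of all genes. The matches are shown 5′ to 3′ on the strand of the gene, with the first 8 bases of each match in capitals, in the reading direction of the motif. In Slc7a11, which encodes the cystine-glutamate exchanger, 2 matches stood 11 bases apart before the start, on opposite strands, at chr3:50443637-50443695 (minus strand).
Slc7a11: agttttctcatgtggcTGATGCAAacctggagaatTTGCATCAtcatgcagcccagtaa
In Slc1a4, which encodes a carrier of alanine, serine and cysteine, the match lay across the annotated start, at chr11:20332699-20332728 (minus strand).
Slc1a4: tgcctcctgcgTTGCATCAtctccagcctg
In Slc7a7, the light chain y+LAT1, the core also lay across the annotated start, at chr14:54417927-54417956 (minus strand). A looser match lay upstream of the start at chr14:54418067-54418096.
Slc7a7: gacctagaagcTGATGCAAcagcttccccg
Slc7a7 upstream: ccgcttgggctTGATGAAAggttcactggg
All 3 of these genes were too low in the ducts to be tested between the diets, as given further on. A match is only a run of letters in this window, and binding was not measured.

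The same gene is compared between libraries in CPM (counts relative to the library total), and different genes are compared in TPM, which also allows for transcript length. Libraries held 64.8 to 94.1 M estimated counts. They are named by diet and by the number in their column name, which does not tie them to a sample title. The 8 principal cell markers, Aqp2 among them at 9174 to 20712 TPM, summed to 20771 to 26519 TPM under normal salt and 29148 to 35019 TPM under high salt, with no overlap. Aqp2 and Aqp3 (log2 fold change 0.67 and 0.68, limma adjusted p = 0.286 and 0.162) carried that gap, whereas 4 of the 8 had a negative log2 fold change, Scnn1b at -0.49 without overlap (limma adjusted p = 0.281), and the median of the 8 was 0.0050. The 8 intercalated cell markers summed to 5595 to 7630 and 5715 to 6781 TPM. Of these 8, 2 had a positive log2 fold change, and the median was -0.15. By limma 0 passed an adjusted p under 0.05, and 2 (25%) were lower without overlap in CPM, against 2.75% of all genes. Markers of the thick ascending limb (7) summed to 1186, 637, 450 and 993 TPM in normal-salt libraries 1, 2, 3 and 6. In high-salt libraries 2, 3, 4 and 6 they summed to 169, 185, 342 and 1647 TPM, so the ranges overlapped through library 6. Of the 7, 0 had a positive log2 fold change (52.8% of all genes did), with a median of -1.43. By limma 0 of them had an unadjusted p under 0.05. Markers of the proximal tubule (13) summed to 20.9 to 239 and 28.7 to 337 TPM, and those of endothelium (7) to 118 to 181 and 106 to 169 TPM. Leukocyte markers (8) summed to 37.1 to 83.1 and 26.0 to 56.7 TPM, and those of fibroblasts and pericytes (7) to 9.95 to 115 and 15.9 to 54.8 TPM. Erythrocyte markers (5) summed to 1.02 to 37.9 and 0.476 to 3.06 TPM, and nerve and glia markers (5) to 9.83 to 14.8 and 10.5 to 15.7 TPM. The part of other cells in the values below was not tested. In pooled ducts, fewer cells of a type and less RNA per cell cannot be told apart.

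The ducts expressed a small set of amino acid carriers at high level and most of the families' members at trace level. Under normal salt 20 of the 42 members had a mean of at least 1 TPM and 9 of at least 10 TPM. All 42 together summed to 449 ± 69.2 TPM under normal salt and 434 ± 41.1 TPM under high salt (SD, n = 4 each), and these ranges overlapped. The Slc38a family held the largest mean share of that sum under both diets (29.8% ± 2.26 and 31.8% ± 2.38), followed by Slc43a (24.4% ± 5.56 and 19.1% ± 4.03). Slc1a held 14.9% ± 2.86 and 15.2% ± 0.447, and Slc3a held 14.4% ± 2.20 and 15.7% ± 3.31. The light chains of Slc7a held 8.58% ± 1.21 and 8.90% ± 1.25, its cationic carriers 6.78% ± 1.41 and 8.09% ± 0.983, and Slc36a 1.10% ± 0.0671 and 1.27% ± 0.144. In every family the sums of the 4 high-salt libraries overlapped those of the 4 normal-salt libraries.

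**Figure D1:**
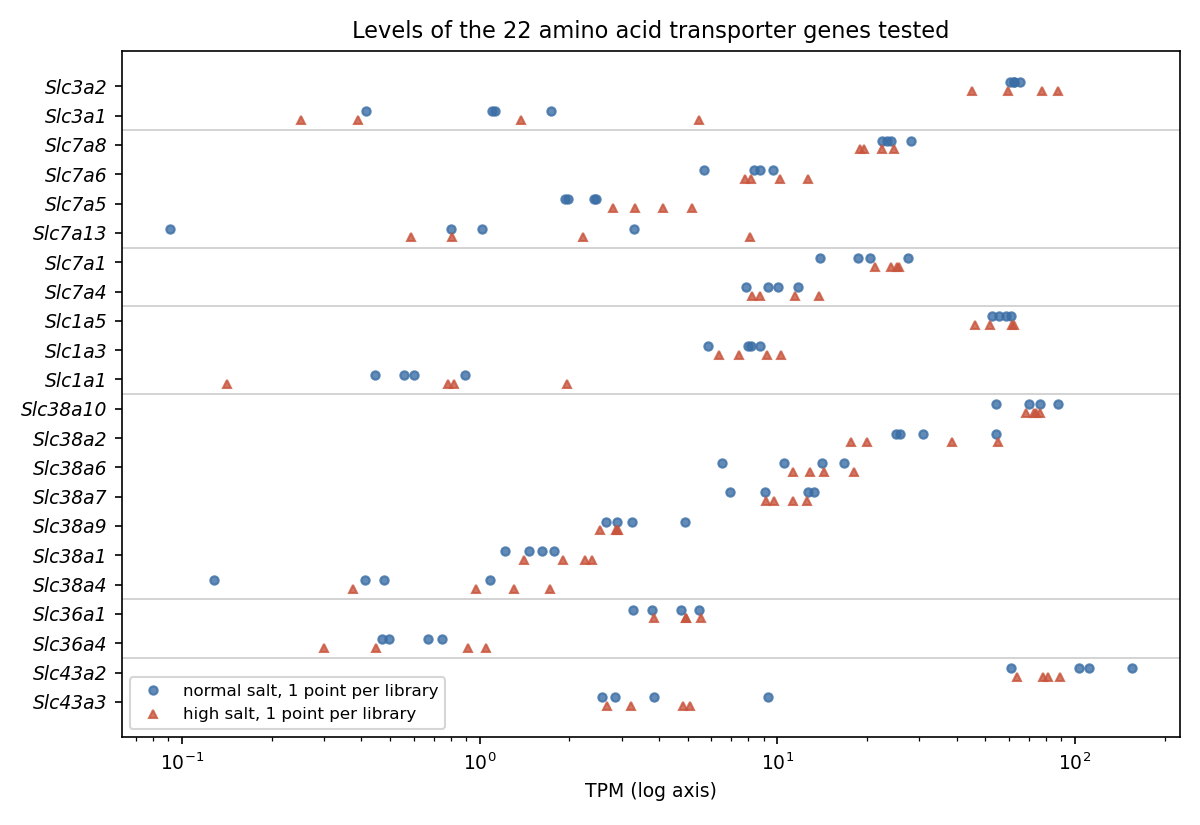
Level of each of the 22 tested members in TPM (log axis), with circles for the 4 normal-salt and triangles for the 4 high-salt libraries and grey lines between families. Slc43a2, Slc38a10, Slc3a2 and Slc1a5 lie highest, and Slc3a1, Slc7a13 and Slc1a1 spread most widely between libraries.

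The members at the top were Slc43a2, with a mean of 107.7 ± 38.6 TPM under normal salt, Slc38a10 with 72.0 ± 14.1, Slc3a2 with 62.6 ± 1.97 and Slc1a5 with 56.9 ± 3.61 TPM (SD, n = 4). Slc43a2 stood at place 1456 among 13698 genes with a mean of at least 1 TPM. It was the highest member in 4 of 4 normal-salt and 2 of 4 high-salt libraries, and Slc3a2 was the highest in the other 2. The ranges of these 4 genes touched or overlapped from each to the next, so their order is not settled by the spread between libraries. Slc38a2 followed at 34.0 ± 13.7 TPM, then Slc7a8 at 24.5 ± 2.54, Slc7a1 at 20.2 ± 5.65, Slc38a6 at 11.97 ± 4.45 and Slc38a7 at 10.5 ± 3.03 TPM.

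In GENCODE M21 on mm10 all 42 symbols match protein-coding genes. Chromosome 11 holds Slc43a2 (75531694 to 75577575, plus strand) and Slc38a10 (120103960 to 120151346, minus strand). Chromosome 19 holds Slc3a2 (8706882 to 8723369, minus strand), chromosome 7 Slc1a5 (16781340 to 16798274, plus strand) and chromosome 8 Slc7a5 (121881150 to 121907694, minus strand). The minus strand of chromosome 14 holds Slc7a7 (54369442 to 54417780) and Slc7a8 (54722209 to 54781946), and that of chromosome 15 holds Slc38a1 (96571418 to 96642913), Slc38a2 (96687392 to 96699730) and Slc38a4 (96994820 to 97055956). Values are per gene and separate neither exons nor isoforms.

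Between the diets 22 members had at least 1 CPM in at least 4 libraries and were tested. By limma 0 of the 22 passed an adjusted p under 0.05 over all genes, where 0.0821% of 13401 genes passed, and the lowest adjusted p was 0.338. An unadjusted p under 0.05 was reached by 2 members (9.09%), Slc43a2 with a lower and Slc7a5 with a higher mean under high salt, against 10.3% of all genes (5.95% higher and 4.37% lower), so the members' share was near the background. In CPM 0 of the 22 separated the diets without overlap, against 6.40% of all genes (3.66% higher and 2.75% lower). The log2 fold change was positive in 15 members (68.2%) and negative in 7, against 52.8% positive among all genes, with a median of 0.08 for the members and 0.01 for all genes. For 19 of the 22 the 95% interval of the fold change, taken on CPM + 1, lay within 2-fold in either direction. The 3 exceptions were Slc7a5, Slc7a13 and Slc3a1. Slc38a4 and Slc1a1, both low, stayed barely inside, each with an upper bound of 1.99-fold. Adding 1 to CPM makes the fold changes of low genes smaller. The log2 fold change of Slc38a4 was 0.47, but 0.63 with 0.5 added and 0.97 by voom. A change past 2-fold in CPM itself is therefore not excluded for such low genes.

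**Figure D2:**
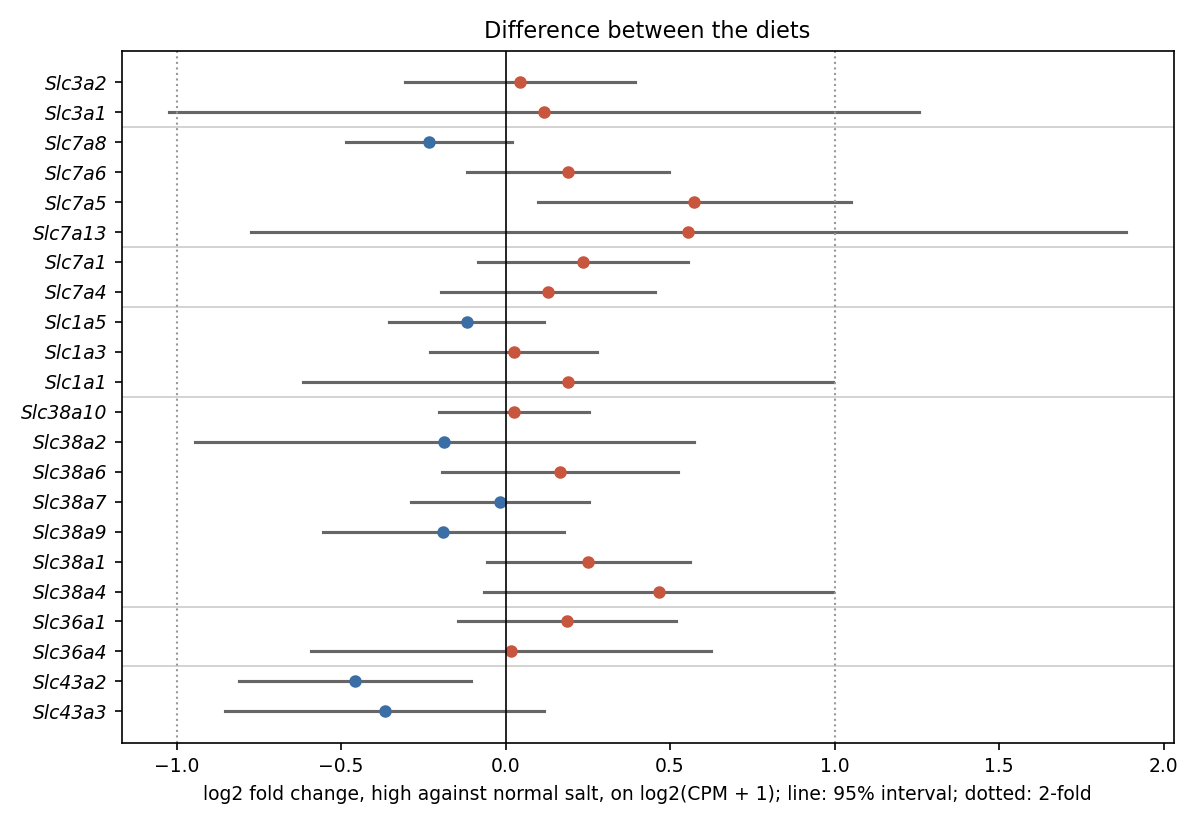
Log2 fold change of high against normal salt on the log2(CPM + 1) scale for the 22 tested members (points) with 95% intervals from limma (lines). Only the intervals of Slc7a5 and Slc43a2 exclude 0, and neither gene passed after adjustment over all genes.

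The ubiquitous heavy chain Slc3a2 (CD98), which brings its light chains to the cell surface, was expressed in every library. It was measured at 72.1, 67.5, 65.6 and 61.2 CPM in normal-salt libraries 1, 2, 3 and 6 and at 49.8, 80.1, 62.9 and 88.1 CPM in high-salt libraries 2, 3, 4 and 6. The high-salt libraries lay on both sides of the normal-salt ones and were spread more widely, at 66.6 ± 4.55 and 70.2 ± 17.2 CPM (log2 fold change 0.04, SE 0.16, limma adjusted p = 0.952).

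Among the light chains that pair with Slc3a2, Slc7a8 (LAT2), an exchanger of neutral amino acids, was the main transcript. It had 71.6, 55.6, 59.0 and 68.3 CPM under normal salt and 56.0, 49.3, 48.6 and 62.1 CPM under high salt. The mean was lower under high salt but the ranges overlapped (log2 fold change -0.23, SE 0.11, limma adjusted p = 0.528). Slc7a6 (y+LAT2), which exchanges cationic for neutral amino acids, came next with 14.3, 19.3, 16.7 and 18.1 CPM and 16.7, 20.8, 17.6 and 23.5 CPM. High-salt library 6 was its highest and normal-salt library 1 its lowest (log2 fold change 0.19, SE 0.14, limma adjusted p = 0.698).

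Slc7a5 (LAT1), the carrier of leucine and other large neutral amino acids known from dividing cells, was low. On the log2(CPM + 1) scale it had the largest positive log2 fold change of the tested members. With 0.5 added to CPM instead of 1, Slc7a13 (0.70) and Slc38a4 (0.63) exceeded Slc7a5 (0.61). Slc7a5 had 4.97, 5.41, 5.40 and 4.17 CPM under normal salt and 5.35, 11.8, 6.40 and 9.37 CPM under high salt. High-salt libraries 3 and 6 stood above the rest, and high-salt library 2 lay within the normal-salt range. The means were 4.99 ± 0.580 and 8.22 ± 2.91 CPM (log2 fold change 0.57, SE 0.22, 95% interval 1.07-fold to 2.07-fold, unadjusted p = 0.0226, limma adjusted p = 0.382). In TPM, where transcript length enters, its 4 high-salt libraries (2.81 to 5.18) lay above the 4 normal-salt ones (1.93 to 2.46), and it was the only tested member without overlap in TPM, against 6.14% of all genes.

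Slc3a2 exceeded the sum of its light chains Slc7a5, Slc7a6, Slc7a7, Slc7a8, Slc7a10 and Slc7a11 in all 8 libraries. In TPM the ratio averaged 1.74 ± 0.166 on normal salt and 1.88 ± 0.391 on high salt (SD, n = 4 each), from 1.31 in high-salt library 2 to 2.18 in high-salt library 3. Of the light chain sum, Slc7a8 made 67.9% ± 4.32 under normal salt and 60.1% ± 4.33 under high salt, with overlap (64.7% to 74.0% and 55.0% to 65.0%). Ratios of transcripts say nothing of the paired proteins, which were not measured.

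**Figure D3:**
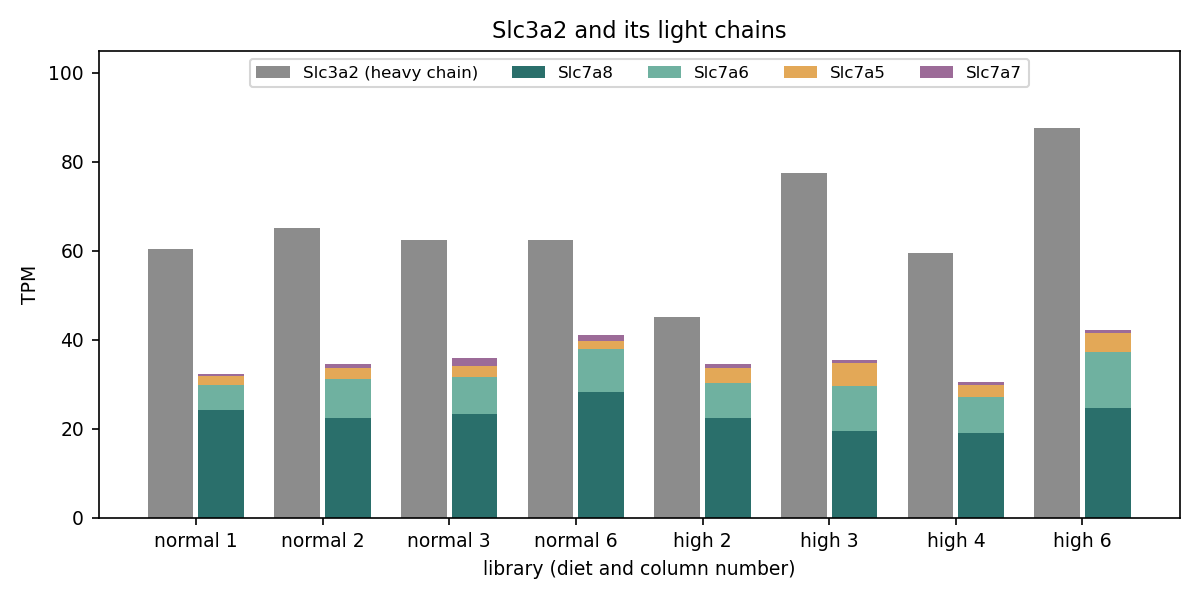
TPM of the heavy chain Slc3a2 (grey bars) beside the stacked TPM of its 4 main light chains in each library, named by diet and column number. Slc3a2 is the taller bar throughout, Slc7a8 is the largest light chain in each library, and Slc7a5 is larger in every high-salt than in any normal-salt library.

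The other heavy chain, Slc3a1 (rBAT), and its partners Slc7a9 and Slc7a13 belong to the brush border of the proximal tubule, where Slc3a1 and Slc7a9 reclaim cystine. In the ducts Slc7a13 had 4.69, 1.16, 0.106 and 0.901 CPM under normal salt and 0.673, 0.932, 2.60 and 9.35 CPM under high salt. Slc3a1 had 2.71, 1.44, 0.552 and 1.45 CPM and 0.331, 0.519, 1.86 and 7.26 CPM. Both were highest in high-salt library 6, next highest in normal-salt library 1 and then in high-salt library 4. The 13 proximal tubule markers summed to 239, 102, 20.9 and 106 TPM in normal-salt libraries 1, 2, 3 and 6 and to 45.3, 28.7, 255 and 337 TPM in high-salt libraries 2, 3, 4 and 6. Those libraries were also the 3 highest in these markers.

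Kap, an androgen-regulated proximal tubule transcript, was at 6.83 to 289 TPM and was the largest part of that sum in 7 of 8 libraries. Slc27a2, a fatty acid carrier, was at 10.9 to 35.3 TPM and was the largest part in normal-salt library 3, at 12.2 TPM. Slc34a1, the phosphate cotransporter, was at 0 to 1.68 TPM, Lrp2 at 0.00800 to 1.24 TPM, and Slc5a12 was listed at 0 in all 8 libraries. The log2 fold change of Slc7a13 was 0.56 (SE 0.60, limma adjusted p = 0.803), and 0.0076 without high-salt library 6. That of Slc3a1 was 0.12 (SE 0.52, limma adjusted p = 0.962), and it turned to -0.43 without the same library. Slc3a1 shares 601 of 2271 exonic bases with Prepl on the opposite strand, which had 22.2 to 44.9 TPM, and since the strand setting of the counting is not given, reads of this stretch cannot be told apart. Slc7a9 had at most 0.355 CPM and was not tested.

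**Figure D4:**
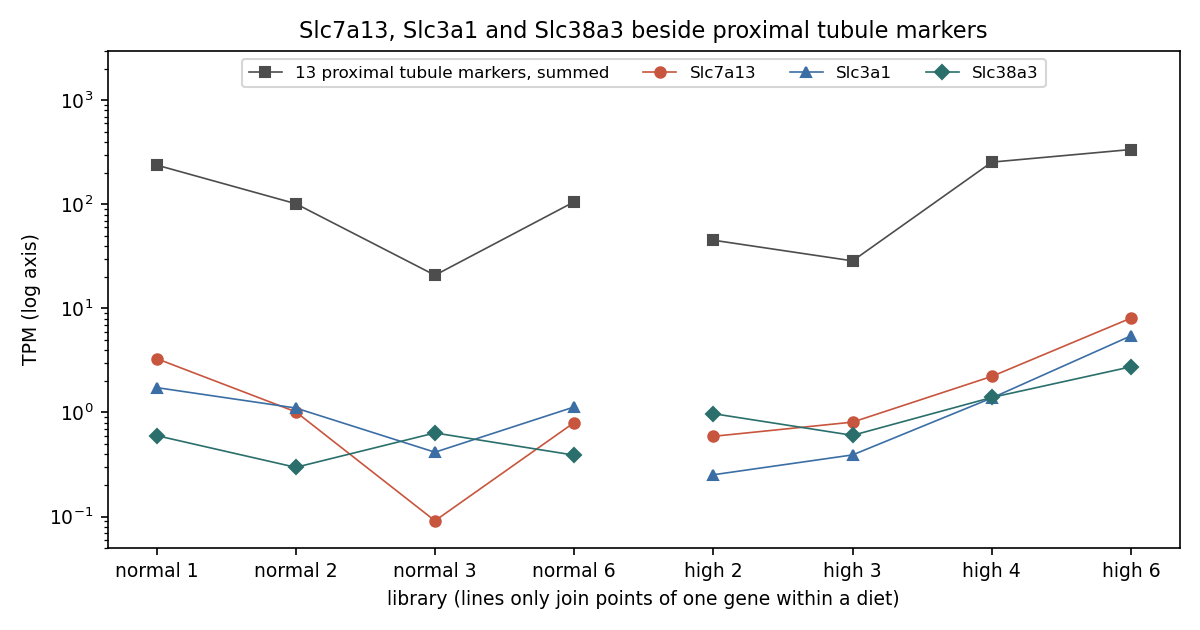
TPM (log axis) by library of Slc7a13, Slc3a1 and Slc38a3 beside the summed TPM of 13 proximal tubule markers. All 3 genes and the marker sum are highest in high-salt library 6, and Slc7a13 and the marker sum are both lowest in normal-salt library 3. Under normal salt Slc38a3 is highest in library 3, where the marker sum is lowest.

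Among the cationic carriers, which bring in arginine, lysine and ornithine, Slc7a1 (CAT1) was the main transcript. It had 72.7, 119.9, 92.2 and 79.9 CPM under normal salt and 93.2, 115.5, 106.3 and 108 CPM under high salt. Normal-salt library 2 was its highest of all, and the other 3 normal-salt libraries lay below the 4 high-salt ones (log2 fold change 0.23, SE 0.14, limma adjusted p = 0.628). Slc7a4, a relative whose substrate is uncertain, had 11.4, 13.1, 11.5 and 8.88 CPM and 11.1, 12.6, 14.7 and 10.9 CPM, with the diets intermixed (log2 fold change 0.13, SE 0.15, limma adjusted p = 0.814, and 0.030 without normal-salt library 6). Slc7a2, the inducible carrier CAT2, reached at most 0.679 CPM, Slc7a3 at most 0.495 CPM and Slc7a14 at most 0.0723 CPM.

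In the Slc1a family Slc1a5 (ASCT2), which exchanges glutamine for other neutral amino acids, made up most of the level. It had 101, 89.5, 87.8 and 82.5 CPM under normal salt and 71.3, 86.1, 80.3 and 95.7 CPM under high salt, and the libraries of the diets were intermixed. Its log2 fold change was -0.12 (SE 0.11, limma adjusted p = 0.76), with a 95% interval from 0.782-fold to 1.08-fold. Slc1a3, the glutamate transporter known from astrocytes, had 16.6, 16.3, 19.0 and 18.5 CPM and 20.7, 17.3, 17.9 and 15.9 CPM. Its fold change was close to 0 at 0.03 on the log2 scale (SE 0.11, limma adjusted p = 0.964).

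Slc1a1, the glutamate transporter of the proximal tubule, had 1.43, 1.35, 2.05 and 0.964 CPM under normal salt and 0.319, 1.86, 1.80 and 4.47 CPM under high salt. High-salt library 6 was again the highest (log2 fold change 0.19, SE 0.36, limma adjusted p = 0.903), and the value turned to -0.14 without it. Slc1a1 shares 2631 of 8257 exonic bases with 4430402I18Rik on the opposite strand, which had 6.01 to 9.98 TPM, so its reads are uncertain too. Slc1a6 and Slc1a7, glutamate transporters of cerebellum and retina, were above 0 in 1 library each.

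The Slc38a family held the most tested members, 7 of 11. Slc38a10, a less studied member, had 112, 136.7, 126.8 and 150.4 CPM under normal salt and 142.9, 121.6, 136.4 and 131.5 CPM under high salt, and the diets overlapped fully (log2 fold change 0.02, SE 0.10, limma adjusted p = 0.96). Slc38a2 (SNAT2), a sodium-coupled carrier known to be induced by amino acid shortage and by hypertonicity, had 80.7, 69.5, 147 and 81.8 CPM and 47.6, 147, 55.1 and 104 CPM. Under each diet library 3 was the highest, and the highest library was 3.10 times the lowest, whereas the means were 94.8 ± 35.4 and 88.4 ± 46.4 CPM (log2 fold change -0.19, SE 0.34, limma adjusted p = 0.897). Its log2 fold change turned to 0.05 without normal-salt library 3 and to 0.06 without high-salt library 2.

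The lysosomal members Slc38a7 and Slc38a9 were moderately expressed. Slc38a7, which exports glutamine from lysosomes, had means of 18.8 ± 2.36 and 18.5 ± 1.89 CPM (limma adjusted p = 0.975). Slc38a9, the arginine sensor that acts on mTORC1, the kinase complex that couples amino acid supply to growth, had 10.8, 10.1, 10.1 and 16.7 CPM and 11.1, 10.4, 9.82 and 9.13 CPM. Normal-salt library 6 stood above the other 7 (log2 fold change -0.19, SE 0.17, limma adjusted p = 0.753), and without it the value was -0.03. Another member of the family, Slc38a6, had 16.6 ± 3.87 and 18.4 ± 2.11 CPM (limma adjusted p = 0.782).

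Both remaining tested members of the family are sodium-coupled carriers. Slc38a1 (SNAT1) had 6.29 ± 0.438 CPM under normal salt and 7.72 ± 1.09 CPM under high salt (log2 fold change 0.25, SE 0.14, limma adjusted p = 0.584). Slc38a4 (SNAT4), known from liver, had 0.752 ± 0.341 and 1.43 ± 0.585 CPM (log2 fold change 0.47, SE 0.24, limma adjusted p = 0.548). Slc38a3 (SNAT3), the glutamine carrier that serves ammonia production in the proximal tubule, was just under the level tested, with 1.05, 0.445, 0.223 and 0.571 CPM under normal salt and 0.536, 0.932, 1.94 and 4.36 CPM under high salt. Its highest values were in high-salt libraries 6 and 4, the highest in proximal tubule markers. In TPM its highest normal-salt value (0.636, on 21 counts) was in library 3, which was the lowest in these markers.

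Of the Slc36a carriers, Slc36a1 (PAT1), which exports amino acids from lysosomes, had 12, 13.6, 12.8 and 17.8 CPM under normal salt and 16.6, 16.9, 12.9 and 17.9 CPM under high salt (log2 fold change 0.19, SE 0.15, limma adjusted p = 0.731). Slc36a4 (PAT4) had 2.28, 2.52, 2.87 and 1.74 CPM and 1.12, 3.98, 1.72 and 3.47 CPM, with the high-salt libraries on both sides of the normal-salt ones (log2 fold change 0.02, SE 0.28, limma adjusted p = 0.991). Slc36a2, a proline and glycine carrier of the proximal tubule, was above 0 in 2 libraries and Slc36a3 in 1.

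Slc43a2 (LAT4), the most abundant member and an efflux route for branched-chain amino acids, phenylalanine and methionine, had the largest negative log2 fold change. It had 281, 342, 317 and 488 CPM under normal salt and 288, 221, 244 and 267 CPM under high salt. Normal-salt library 6 was far above the others, and normal-salt library 1 fell below high-salt library 2, so the diets overlapped. The means were 357 ± 91.0 and 255 ± 29.0 CPM (log2 fold change -0.46, SE 0.16, 95% interval 0.57-fold to 0.929-fold, unadjusted p = 0.0156, limma adjusted p = 0.338). Without normal-salt library 6 the log2 fold change was -0.30 (limma adjusted p = 0.475). Of its 10042 exonic bases 922 lie opposite Gm45606, which had 1.16 to 1.95 TPM.

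Slc43a3, which despite its name carries purine nucleobases, had 5.03, 5.60, 4.02 and 8.88 CPM under normal salt and 4.12, 3.22, 5.40 and 4.16 CPM under high salt, again highest in normal-salt library 6 (log2 fold change -0.37, SE 0.22, limma adjusted p = 0.618). The log2 fold change was -0.18 without that library, and -0.083 in TPM. It is also known from endothelium, whose 7 markers summed to 118, 161, 154 and 181 TPM and to 133, 106, 169 and 140 TPM in the same order of libraries. Slc43a1 (LAT3) had at most 0.0532 CPM.

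**Figure D5:**
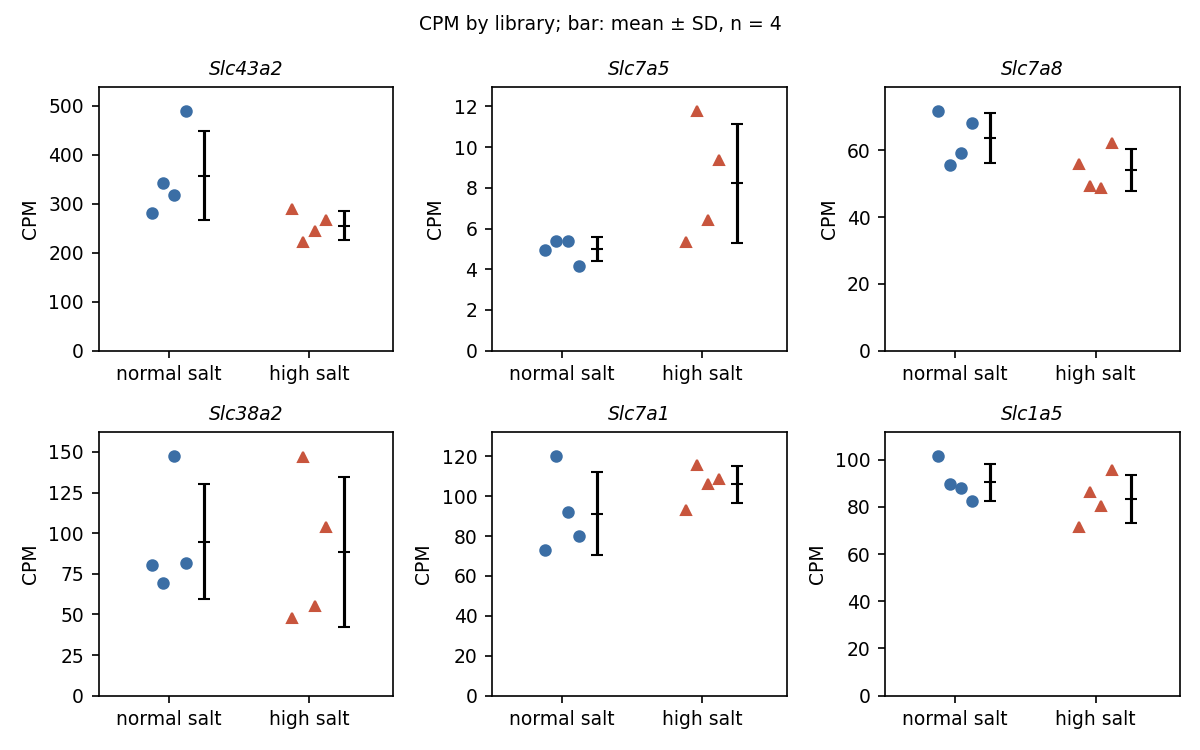
CPM by library of Slc43a2, Slc7a5, Slc7a8, Slc38a2, Slc7a1 and Slc1a5 under normal salt (circles) and high salt (triangles), with the mean and SD of 4 libraries beside them. In each panel the libraries of the diets overlap, narrowly in Slc43a2 and Slc7a5.

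The 20 members that were not tested reached at most 4.36 CPM, in Slc38a3, and 14 of them were at 0 in at least 1 library. A count of 0 allows up to 3 counts, or 0.0319 to 0.0463 CPM by library, and covers counting error only. Slc7a7 (y+LAT1) was near the limit of testing at 0.941, 0.984, 0.998 and 1.78 CPM under normal salt and 1.11, 0.652, 0.868 and 0.780 CPM under high salt, and part of its exons lies opposite Oxa1l on the other strand. Slc1a4 had 0.279 to 1.14 CPM over the 8 libraries. Slc7a11 (xCT), the cystine-glutamate exchanger with both promoter matches shown above, had 0.463, 0.176, 0.212 and 0.850 CPM under normal salt and 0.0684, 0.186, 0.0407 and 0.231 CPM under high salt, which rests on 15 to 67 and 3 to 16 counts. Slc7a12 reached 0.293 CPM, Slc7a15 0.648, Slc7a10 0.0266, Slc38a5 0.0617, Slc38a8 0.108 and Slc38a11 0.191 CPM.

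Carriers and helpers of other families were described beside the members. Of 17 such genes 11 were tested, 0 passed limma's test over all genes, 2 were higher and 1 was lower at an unadjusted p under 0.05 (27.3%, against 10.3% of all genes), and their median log2 fold change was 0.02. Cltrn (collectrin), a chaperone that brings amino acid carriers to the membrane, had 6.93, 14.6, 10.8 and 6.04 CPM under normal salt and 23.2, 21.3, 28.4 and 17.2 CPM under high salt. Its diets did not overlap and were higher under high salt, as in 3.66% of all genes, but it did not pass (log2 fold change 1.20, SE 0.24, limma adjusted p = 0.0937). The betaine carrier Slc6a12 was also higher without overlap, at 37.6 ± 18.9 and 85.1 ± 19.8 CPM (log2 fold change 1.27, SE 0.32, limma adjusted p = 0.17). Slc6a17 had 56.0 ± 6.09 and 45.0 ± 8.69 CPM (limma adjusted p = 0.452), and the aromatic amino acid carrier Slc16a10 had 39.2 ± 3.77 and 32.8 ± 5.41 CPM (limma adjusted p = 0.525). The taurine carrier Slc6a6 was the most abundant of the list in CPM, at 159 ± 26.7 and 160.1 ± 36.6 CPM. In TPM, Slc6a6 was at 49.9 ± 12.5 under normal salt and 52.2 ± 12.5 under high salt. Slc6a12 was below it under normal salt (30.5 ± 15.8 TPM) and above it under high salt (67.3 ± 14.7 TPM) by the mean.

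Genes that answer to amino acid supply were also counted, from lists chosen with earlier results of these data known. Of 18 cytosolic aminoacyl tRNA synthetases, which load amino acids onto tRNA, 0 passed limma's test over all genes, 5 had an unadjusted p under 0.05, all of them higher (27.8%, against 5.95% of all genes that were higher), and 17 had a positive log2 fold change, with a median of 0.17. Mars1, for methionine, had 43.9, 55.6, 52.0 and 46.3 CPM under normal salt and 61.9, 65.2, 63.4 and 69.8 CPM under high salt, higher without overlap, as were 3.66% of all genes (log2 fold change 0.39, SE 0.10, limma adjusted p = 0.163). Aars, for alanine, had 118 ± 9.98 and 139.8 ± 4.30 CPM, Tars, for threonine, 50.2 ± 2.94 and 58.2 ± 1.38 CPM, and Sars, for serine, 97.9 ± 7.86 and 114 ± 7.01 CPM (limma adjusted p = 0.338, 0.397 and 0.425). Aars and Tars were also higher without overlap, whereas the diets overlapped in Sars.

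A list of 26 genes held Atf4 itself and ATF4 targets, the genes switched on by the amino acid response. Of these 26, 23 were tested and 0 passed limma's test over all genes. At an unadjusted p under 0.05 there were 2 higher and 1 lower (13%, near the 10.3% of all genes). The log2 fold change was positive in 18 (78.3%, against 52.8% of all genes), with a median of 0.15. Trib3, too low to be tested, had 0.690 to 1.38 CPM under normal salt and 0.149 to 0.684 CPM under high salt. It was lower without overlap, as were 2.75% of all genes tested, whereas Chac1 and Pycr1, also not tested, overlapped. Psat1, of serine synthesis, had 46.0 ± 11.8 and 73.1 ± 9.60 CPM (limma adjusted p = 0.179), and Asns, asparagine synthetase, 3.24 ± 0.456 and 4.57 ± 0.276 CPM (limma adjusted p = 0.371), both higher without overlap (3.66% of all genes were). Nupr1, a stress-induced nuclear protein, had 29.8 ± 11 and 17.7 ± 1.90 CPM, lower without overlap (limma adjusted p = 0.288), as were 2.75% of all genes, and Mthfd2, of mitochondrial folate metabolism, 12.7 ± 3.70 and 16.7 ± 1.93 CPM (limma adjusted p = 0.5).

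Of 28 genes of amino acid sensing by mTORC1, 0 passed limma's test over all genes, 1 was higher and 3 were lower at an unadjusted p under 0.05 (14.3%, against 10.3% of all genes), and the median log2 fold change was -0.03. Castor1, the cytosolic arginine sensor, had 7.36, 7.74, 7.30 and 7.97 CPM under normal salt and 5.38, 6.13, 4.13 and 4.34 CPM under high salt, lower with no overlap, as were 2.75% of all genes (log2 fold change -0.53, SE 0.15, limma adjusted p = 0.209). Sesn1, a leucine-responsive inhibitor of the pathway, had 37.2 ± 4.05 and 49.5 ± 5.73 CPM (limma adjusted p = 0.216), higher without overlap, as were 3.66% of all genes. The lysosomal regulator Tfeb had 66.9 ± 13.4 and 50.6 ± 7.03 CPM (limma adjusted p = 0.423), and the GTPase Rragd 197 ± 19.9 and 156 ± 34.1 CPM (limma adjusted p = 0.429), both with overlap. Of 14 enzymes of glutamine, glutamate and glutathione metabolism 13 were tested, with a median log2 fold change of 0.08, and by limma 0 passed after adjustment over all genes. Oplah had 147 ± 20.3 and 176 ± 17.2 CPM (limma adjusted p = 0.452), Ggct 7.54 ± 0.490 and 9.54 ± 1.64 CPM (limma adjusted p = 0.516), and Gclc, which limits glutathione synthesis, 355 ± 40.4 and 304 ± 33.0 CPM (limma adjusted p = 0.54). Ggct was higher without overlap, whereas the diets overlapped in Oplah and Gclc.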

How the data were processed

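The submitters' processing notes name mm10, FastQC and Trimmomatic. Libraries came from a stranded mRNA kit, per the labels' protocols. How reads were aligned and counted, with which strand setting and annotation, is not given in the sources used here. Deposited were the authors' log2 CPM, with a shared floor of -5.29, and the authors' TPM. The planned test assumed linear CPM, so each log2 value was converted back as a power of 2, less that of the floor, and rescaled to a library total of 1 M. Steps between low values gave the estimated counts.

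Genes with at least 1 CPM in at least 4 of 8 libraries (13401) were compared as log2(CPM + 1) by limma 3.58.1 under R 4.3.3 (trended eBayes, two-sided, Benjamini-Hochberg adjustment over all genes, called under 0.05). Fold changes on this scale understate those of low genes. The fit was tested on simulated data. Errors are SD over 4 libraries. Members named with values per library were those with an unadjusted p under 0.05 and the 2 highest of each family, and of each list up to 4 with the smallest p. Slc7a5, Slc43a3, Slc38a9 and Slc36a4 fall under this rule or were named in it. Slc7a13, Slc1a1, Slc1a2, Slc38a3, Slc7a7, Slc7a11, Slc6a6 and Trib3 were given fuller values after these were seen. The members and lists were chosen with earlier results of these data known. Protein sequences were not used here. One list gene that the rule names is not reported here. Alternatives covered the pseudocount (0.5 and 2), filter, scaling, TPM, trend, voom, a replicate block and each library left out.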

Additional observations from a re-analysis of the deposited data

Results flagged for a closer look

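In Slc38a9 under normal salt, library 6 (16.7 CPM) stood apart from the other 3 (10.1 to 10.8 CPM), its gap to the nearest being 0.872 of the range, above Dixon's 95% critical value for 4 libraries. This was 1 of 44 groups of 4 libraries looked at over the 22 tested members, and chance flags about 5% of such groups.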

How the results depend on the processing

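Over 17 alternatives limma called 0 members in each, with voom included, and 1 to 4 members had an unadjusted p under 0.05. The lowest adjusted p of any member was 0.113, for Slc43a2 with the replicate block. Of all genes 11 were called (4 higher, 7 lower). There were 0 without a filter on low values (1933 at an unadjusted p under 0.05), 5 in TPM (0 higher, 5 lower), 38 with the replicate block on column numbers and 0 to 50 with a library left out. Leaving out normal-salt library 1 gave 50, library 3 of normal salt and library 4 of high salt 0 each, library 6 of normal salt and library 3 of high salt 1 each, and library 2 of high salt 5. Whether the numbers 2, 3 and 6 shared by both diets pair the libraries was not tested. Deviations of same-numbered libraries from their diet means correlated at 0.21, 0.29 and 0.0020 across genes. Only library 3 correlated best with its own number. The cause of these moves was not tested.

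The sign of the log2 fold change held for 13 of the 22 tested members in each alternative that gave a value. Slc38a4, 1 of the 13, had 16 of the 17, since it, Slc1a1 and Slc36a4 were below the filter in TPM. It turned in 24 of 371 recomputed values, all of them not called. With voom the value was -0.017 for Slc1a1, -0.079 for Slc36a4 and -0.12 for Slc3a1. With the replicate block it was -0.0019 for Slc1a3, -0.063 for Slc38a10 and -0.011 for Slc38a6, and in TPM 0.056 for Slc38a7. With a library left out the values ran from -0.14 to 0.54 for Slc1a1, -0.041 to 0.078 for Slc1a3, -0.17 to 0.24 for Slc36a4, -0.050 to 0.092 for Slc38a10, -0.48 to 0.058 for Slc38a2, -0.082 to 0.054 for Slc38a7, -0.43 to 0.44 for Slc3a1 and -0.075 to 0.20 for Slc3a2. Among the 13, with a library left out, the values ran from 0.030 to 0.20 for Slc7a4, -0.50 to -0.18 for Slc43a3, 0.0076 to 1.00 for Slc7a13 and 0.40 to 0.73 for Slc7a5. Members under 1 CPM rest on few counts and are the least precise.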

Other observations

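In some members too low to be tested, among them Slc1a2, Slc7a11, Slc38a3 and Slc7a7, CPM and TPM gave different pictures. Slc38a3 in normal-salt library 3 was the lowest of its diet in CPM (0.223) but the highest in TPM (0.636). Slc7a7 was highest in normal-salt library 6 in CPM (1.78) but in normal-salt library 3 in TPM (1.76). Slc1a2, the main glutamate transporter of astrocytes, had 0.201, 0.211, 0.457 and 0.0127 CPM under normal salt and 0.160, 0.652, 0.651 and 0.332 CPM under high salt. In TPM the same libraries had 0.024, 0.030, 0.064 and 0.0020 under normal salt and 0.023, 0.702, 1.09 and 1.19 under high salt. High-salt library 6 thus had a lower CPM but a much higher TPM than normal-salt library 3, on 23 and 43 counts. Slc7a11 was at 0.104 to 0.256 TPM under normal salt and 0.028 to 0.045 TPM under high salt, without overlap, whereas its CPM overlapped. The cause of the difference between CPM and TPM was not tested.

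The ratio of TPM to CPM, set relative to the median gene of each library, varied between libraries by a median of 1.13-fold (highest over lowest) among 8891 genes with at least 10 CPM in every library. In Slc7a8 it varied by 1.01-fold, in Slc43a2 by 1.30-fold and in Slc38a6 by 1.45-fold.

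Several members of different families were high in the same high-salt libraries. Slc7a5 (11.8 and 9.37 CPM), Slc3a2 (80.1 and 88.1 CPM), Slc7a6 (20.8 and 23.5 CPM), Slc38a2 (147 and 104 CPM) and Slc36a4 (3.98 and 3.47 CPM) each had their 2 highest high-salt values in libraries 3 and 6. So did Slc1a5, Slc7a1, Slc36a1 and Slc1a1, whereas the other tested members did not. The share of all genes with this pattern was not counted. Libraries 3 and 6 differed in other ways: the thick ascending limb markers summed to 185 TPM in library 3 and to 1647 TPM in library 6. This grouping was noticed in the values and was not tested.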
